A study of Mus musculus with 4 samples.

Results

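The genes described here are 40 genes of the integrated stress response and the unfolded protein response, read in mouse cells of the inner medullary collecting duct (IMCD) that carried or lacked the type II TGF-β receptor, TβRII. They were chosen by symbol as 25 genes of the ATF4 branch and 15 genes of the endoplasmic reticulum (ER) branch, out of 37981 gene loci, and all 40 had a row of their own in the deposited tables. The ATF4 branch holds 9 regulators, 7 enzymes of asparagine, serine, one-carbon and cysteine metabolism, and 9 cytosolic aminoacyl-tRNA synthetases. The ER branch holds 2 transcription factors, 11 chaperones and folding enzymes, and 2 genes of ER-associated degradation.

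IMCD cells come from the last segment of the collecting duct, where urine is concentrated. These cells came from C57B/l mice with floxed Tgfbr2, the gene for TβRII, and were immortalized with psv40. TβRII-/- cells were treated with adeno-Cre, an adenovirus that delivers the Cre recombinase, and TβRII fl/fl cells received no Cre. Loss of TβRII, the virus and Cre itself therefore cannot be told apart. RNA-Seq was performed on each genotype in serum-replete medium and after 4 days of serum starvation, which gave 4 libraries with 1 library per condition, so no difference below has a replicate check and no test was run.

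When amino acids run short or unfolded proteins gather in the ER, kinases phosphorylate the translation factor eIF2α. General translation then slows, while the mRNA of ATF4 is translated more, and ATF4 switches on genes for amino acid synthesis, amino acid import and tRNA charging. ER stress also activates IRE1, which splices the mRNA of XBP1, and ATF6, which is cut free from the membrane, and both raise ER chaperones and the machinery that degrades misfolded proteins. Tubular epithelium engages these pathways under nutrient, hypoxic and toxic stress. RNA level does not show how much ATF4 protein is made, and a gene-level value does not separate spliced from unspliced Xbp1.

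Genes of each pathway are known to carry binding sites for their regulators ahead of the start site, and windows that held such letters are shown here, although most ATF4 branch windows held none. RefSeq promoter windows (GRCm38.p6, 250 bases before to 50 after the annotated start, 300 in all) were searched for 32 of the 40 genes. Those of Aars, Cth, Wars, Nars, Cars, Atf6, Manf and Hyou1 were not used here. The ER stress response element (ERSE, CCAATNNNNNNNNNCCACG, either strand), a site known to bind NF-Y with ATF6, was present in 6 of the 9 chaperone windows, in 0 of the 20 ATF4 branch windows and in 37 of 27025 genes (0.137%). The sites are given 5′ to 3′ along the gene's own strand with the element in capitals, which is its reverse complement in Creld2 and Calr.
Hspa5, chr2:34772020-34772048, plus strand: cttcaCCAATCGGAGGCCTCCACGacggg
Dnajc3, chr14:118937803-118937869, plus strand: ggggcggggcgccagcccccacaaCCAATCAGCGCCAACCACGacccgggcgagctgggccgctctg
Pdia6, chr12:17266467-17266533, plus strand: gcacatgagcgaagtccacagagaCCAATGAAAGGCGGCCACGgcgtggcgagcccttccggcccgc
Creld2, chr15:88819496-88819562, plus strand: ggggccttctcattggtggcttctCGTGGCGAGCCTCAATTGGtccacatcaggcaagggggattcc
Calr, chr8:84847051-84847117, minus strand: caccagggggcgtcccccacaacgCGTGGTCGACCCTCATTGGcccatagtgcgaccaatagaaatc
The other chaperone with the element, Hsp90b1, had it at 2 places, 212 and 107 bases before the start.

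The core of the C/EBP-ATF response element (CARE, TGATGNAA, either strand), a site known to bind ATF4 with a C/EBP partner, was present in 7 of the 20 ATF4 branch windows (35%), in 1 of the 12 ER branch windows and in 1219 of 27025 genes (4.51%). The genes were Trib3, Nupr1, Chac1, Vldlr, Asns, Gars and Tars, and in the ER branch Herpud1. No window held both elements. The match of Trib3 lay after the start and is not shown. The capitals mark the core, which is its reverse complement in every stretch shown except that of Asns.
Nupr1, chr7:126625562-126625591, minus strand: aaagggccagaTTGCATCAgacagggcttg
Chac1, chr2:119351025-119351080, plus strand: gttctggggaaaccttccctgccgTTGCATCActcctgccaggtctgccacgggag
Vldlr, chr19:27216809-27216838, plus strand: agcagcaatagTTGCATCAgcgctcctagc
Asns, chr6:7693214-7693243, minus strand: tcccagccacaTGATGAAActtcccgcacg
Gars, chr6:55037947-55038000, plus strand: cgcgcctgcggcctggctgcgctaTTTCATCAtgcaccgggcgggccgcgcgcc
Tars, chr15:11399659-11399684, minus strand: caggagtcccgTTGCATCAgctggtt
Herpud1, chr8:94386293-94386348, plus strand: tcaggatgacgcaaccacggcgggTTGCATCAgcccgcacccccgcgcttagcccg
The XBP1-binding element (UPRE, TGACGTGG, either strand) was in 0 of the 32 windows and in 193 of 27025 genes (0.714%). Absence says only that these letters do not stand in this window.

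**Figure D1:**
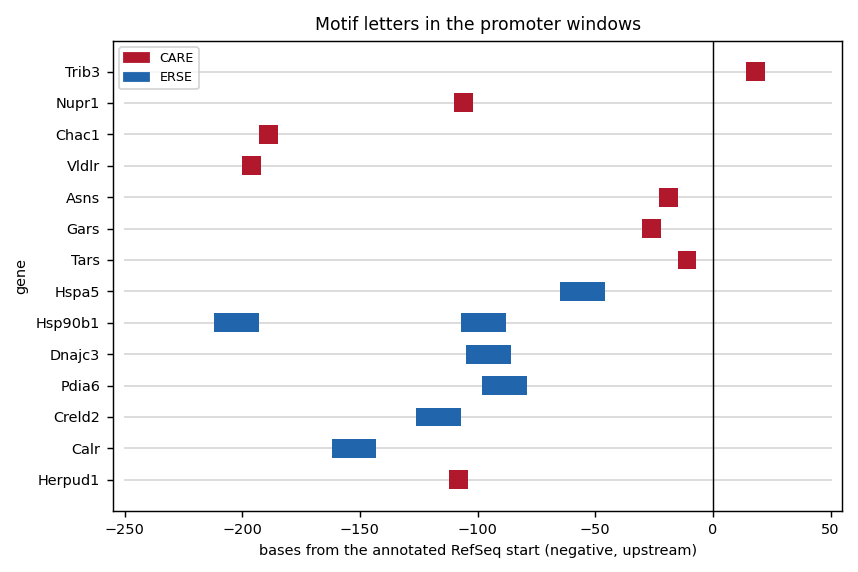
Positions of the ERSE (blue) and CARE (red) letters in the promoter windows of the genes that hold one, in bases from the annotated RefSeq start, with negative positions upstream. ERSE stands in 6 chaperone windows and CARE in those of 7 ATF4 branch genes and Herpud1, and no window holds both.

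Expression was read as FPKM, fragments per kilobase of transcript relative to sequencing depth, a level that can be compared between genes because it is scaled to length. The genotypes were compared within a medium as a log2 ratio, TβRII-/- over TβRII fl/fl, of FPKM + 1, a scale that understates the change of low genes, and a gene was kept if it reached 1 FPKM in either library. All 40 genes passed in both media. Differences of at least 2-fold (log2 ratio of 1) were called, and counts at 1.5-fold are also given. The tables of the 2 media were normalized separately, so levels in different media are set side by side without a ratio. The steps between low values gave an estimated depth of about 32700000 and 31800000 reads for serum-starved TβRII-/- and TβRII fl/fl cells. For serum-replete cells the estimates were 40800000 and 32400000 reads, where 30000000 reads are stated for each library. At this estimated depth the approximate counting error of a log2 ratio was at most 0.16 among the 40 genes (Trib3 in serum-replete medium). It does not cover differences between cultures.

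Tgfbr2 itself was 73.7 FPKM in TβRII-/- cells against 143 FPKM in TβRII fl/fl cells after starvation, and 57.0 and 163 FPKM in serum-replete medium, over the whole gene rather than the floxed exon. Of 13 collecting duct and tubular epithelial markers, 4 to 7 reached 1 FPKM in a library, their summed level ran from 316 to 711 FPKM, and Aqp2, the water channel of collecting duct principal cells, was at 0 in all 4. The list did not move one way. Krt7 was 362 against 53.9 FPKM after starvation and 525 against 91.5 FPKM with serum, TβRII-/- given first, and carried the higher sum of TβRII-/- cells, while Krt8 was 0.13 against 142 FPKM and 0.23 against 251 FPKM, and Hsd11b2 and Cdh1 were under 1 FPKM in TβRII-/- cells alone. The summed levels were 0.60 to 2.72 FPKM for 6 fibroblast markers, 0.041 to 0.10 FPKM for 4 endothelial markers with Cdh5 at 0, 4.04 to 11.9 FPKM for 4 leukocyte markers with Cd3e at 0, and 7.65 to 53.8 FPKM for 5 proximal tubule markers with Slc34a1 at 0. The proximal tubule sum was lower in TβRII-/- cells through Aqp1 (0.50 against 48.5 FPKM after starvation, 0.90 against 20.3 FPKM with serum), whereas Lrp2 was higher there (20.4 against 4.19 FPKM and 5.61 against 2.18 FPKM). The part of such cell identity differences in the results was not tested, and in bulk RNA fewer cells of a type and less RNA per cell cannot be told apart.

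In serum-starved cells the ATF4 branch stood higher in TβRII-/- than in TβRII fl/fl cells, led by Psat1, Chac1, Sesn2 and Asns, while most ER chaperones differed little. Of the 40 genes, 2 were at least 2-fold higher, against 8.02% of the 12687 genes kept, and 0 were at least 2-fold lower, against 6.64%. At 1.5-fold, 12 were higher and 0 lower, where 16.4% and 13.7% of all genes were. The ratio was above 0 for 31 of the 40 genes, against 52.1% of all genes. The ATF4 branch held 11 of the 12 genes that were at least 1.5-fold higher, and its median log2 ratio was 0.55, with 21 of 25 genes above 0. The ER branch had a median of 0.091, with 10 of 15 genes above 0, and the median of all genes was 0.028.

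In serum-replete cells the ratios of these genes lay on both sides of 0, with Psat1 highest and Cebpb lowest. Of the 40 genes, 1 was at least 2-fold higher in TβRII-/- cells (Psat1), against 7% of the 12635 genes kept, and 2 were at least 2-fold lower (Cebpb and Herpud1), against 11.1%. At 1.5-fold, 3 were higher and 5 lower, where 15.1% and 20.8% of all genes were. The ratio was above 0 for 23 of the 40 genes, against 47.9% of all genes. The median log2 ratio was 0.22 in the ATF4 branch and −0.0056 in the ER branch, a value whose sign changed with scaling, beside −0.029 over all genes.

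**Figure D2:**
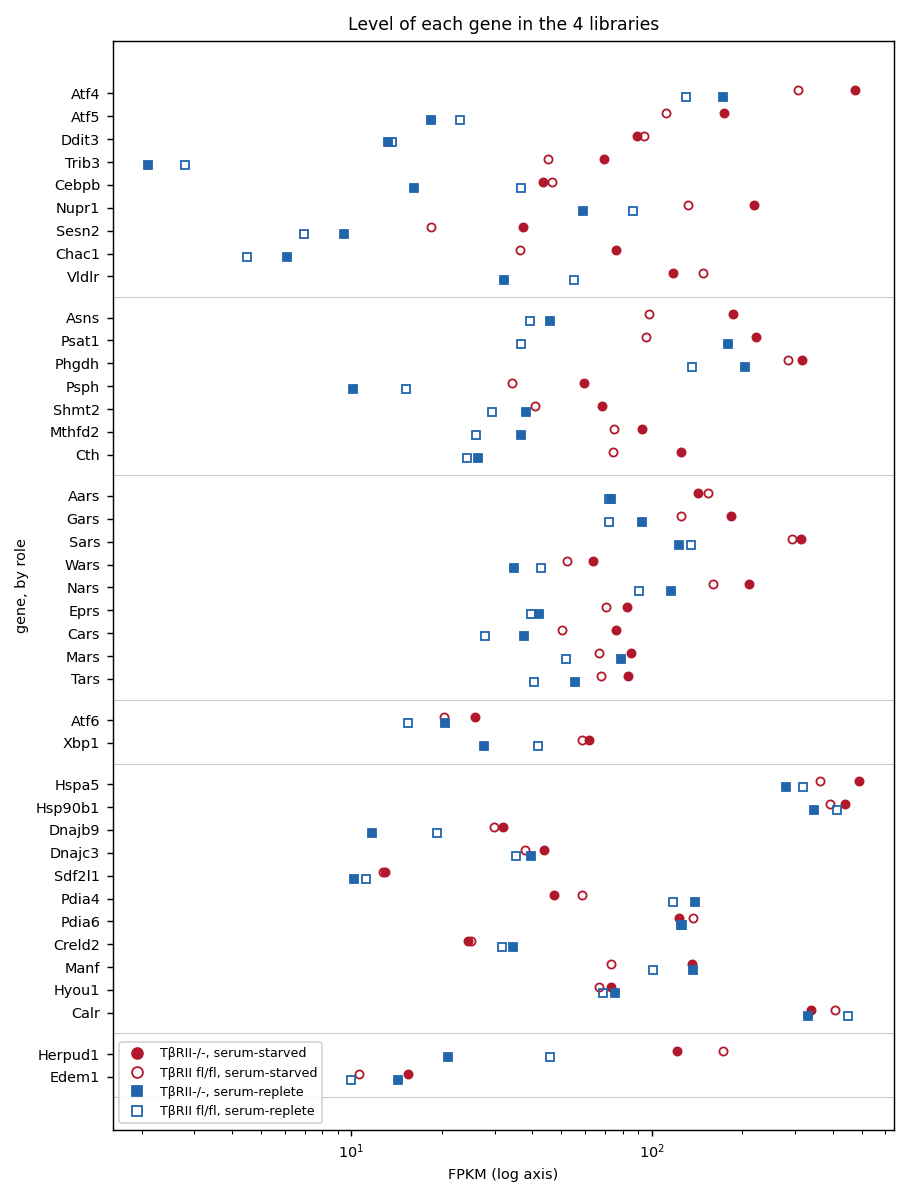
FPKM of each of the 40 genes in the 4 libraries (log axis), ordered by role from ATF4 branch regulators at the top to ER-associated degradation at the bottom; red circles are serum-starved and blue squares serum-replete libraries, filled for TβRII-/- and open for TβRII fl/fl cells. Both red symbols lie to the right of both blue symbols for 23 of the 25 ATF4 branch genes and for 5 of the 15 ER branch genes.

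Among the regulators, Atf4 (chromosome 15, 80255184 to 80257541), the transcription factor at the head of the branch, was 474 FPKM in serum-starved TβRII-/- cells and 306 FPKM in serum-starved TβRII fl/fl cells, and 173 and 130 FPKM in serum-replete medium. It was the most abundant regulator in every library, and it was higher in TβRII-/- cells by a log2 ratio of 0.63 after starvation and 0.41 in serum-replete medium. Ddit3 (chromosome 10, 127290774 to 127296288) encodes CHOP, a transcription factor downstream of ATF4 that is linked to cell death in prolonged stress. Ddit3 was 89.3 FPKM in TβRII-/- cells against 94.1 FPKM in TβRII fl/fl cells after starvation, and 13.3 and 13.6 FPKM in serum-replete medium. Its log2 ratios were −0.07 and −0.04, with counting errors of 0.043 and 0.11, so the genotypes were nearly level in each medium, and both starved libraries stood above both replete libraries. Exons of Ddit3 overlap those of Mars on the other strand over 68 bases, and the sources used here do not state whether reads were counted by strand.

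Chac1 (chromosome 2, 119351229 to 119354381), which degrades glutathione and is a strongly induced ATF4 target, was 75.7 FPKM in TβRII-/- cells against 36.4 FPKM in TβRII fl/fl cells after starvation, and 6.09 and 4.47 FPKM in serum-replete medium. The genotype difference after starvation was just past 2-fold, at a log2 ratio of 1.04 with a counting error of 0.043, and 0.98 once both libraries were scaled to the same upper quartile. In serum-replete medium the ratio was 0.37. Sesn2, which restrains mTORC1 when amino acids are low, was at the 2-fold limit, under it on the scale of FPKM + 1 and over it with smaller pseudocounts, at 37.3 against 18.3 FPKM after starvation (log2 ratio 0.98) and 9.46 against 6.97 FPKM in serum-replete medium (0.39).

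Cebpb (chromosome 2, 167688915 to 167690418) encodes a C/EBP factor that pairs with ATF4 on CARE sites and also serves in inflammatory and differentiation programs. Cebpb was 43.3 FPKM in TβRII-/- cells against 46.7 FPKM in TβRII fl/fl cells after starvation (log2 ratio −0.11). In serum-replete medium it was 16.2 and 36.6 FPKM, a log2 ratio of −1.13, the lowest of the 9 regulators. The serum-replete TβRII-/- library thus stood apart below the other libraries. Cebpb shares 312 exonic bases with Tmem189 on the other strand.

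Of the remaining regulators, Nupr1, a small stress-induced chromatin protein, was 219.8 FPKM in TβRII-/- cells against 132 FPKM in TβRII fl/fl cells after starvation, and 59.2 and 86.4 FPKM in serum-replete medium. Its genotype difference thus pointed in opposite directions, at log2 ratios of 0.73 and −0.54. Atf5, a transcription factor translated like ATF4, and Trib3, a pseudokinase induced by ATF4 and CHOP, had opposite signs too. Atf5 was 174 against 111 FPKM after starvation (0.64) and 18.4 against 22.9 FPKM in serum-replete medium (−0.30). Trib3 had the lowest serum-replete levels of the 40 genes, 2.11 and 2.79 FPKM (−0.29 with a counting error of 0.16), and stood at 69.5 and 45.1 FPKM after starvation (0.61). Vldlr, a lipoprotein receptor also induced through ATF4, was lower in TβRII-/- cells in both media, at 118 against 149 FPKM after starvation (−0.33) and 32.2 against 55.1 FPKM in serum-replete medium (−0.76). Over the 9 regulators the median log2 ratio was 0.63 after starvation, with 6 of 9 at least 1.5-fold higher (16.4% of all genes were). In serum-replete medium the median was −0.29, and the 2 of 9 that were at least 1.5-fold lower (Cebpb and Vldlr) are a share near the 20.8% of all genes.

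The amino acid enzymes were the group with the highest median ratio in both media, 0.75 after starvation and 0.37 in serum-replete medium. Psat1 (chromosome 19, 15904678 to 15947337), the transaminase of the serine synthesis pathway, had the largest ratio of the 40 genes in each medium. Psat1 was 222 FPKM in TβRII-/- cells against 95.9 FPKM in TβRII fl/fl cells after starvation (log2 ratio 1.21). With serum it was 179.8 and 36.7 FPKM, a log2 ratio of 2.26. Both TβRII-/- libraries lay above both TβRII fl/fl libraries, though the media were normalized separately.

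The other steps of serine synthesis did not share this size of difference. Phgdh, which catalyzes the first step, was 316 against 285 FPKM after starvation (0.15) and 205 against 136 FPKM in serum-replete medium (0.59). Psph, which releases serine in the last step, was 59.4 against 34.1 FPKM after starvation (0.78) and 10.1 against 15.1 FPKM in serum-replete medium (−0.54), the only enzyme of the 7 with a ratio below 0 in either medium. Psph shares 452 exonic bases with Cct6a on the other strand.

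Asns (chromosome 6, 7675169 to 7693254), asparagine synthetase, was 187 FPKM in TβRII-/- cells against 98.0 FPKM in TβRII fl/fl cells after starvation, a log2 ratio of 0.92, and 45.9 and 39.4 FPKM in serum-replete medium, a log2 ratio of 0.22. Both starved libraries stood above both replete libraries, and the genotypes lay farther apart after starvation. Cth, which makes cysteine from cystathionine, was 125 against 74.3 FPKM after starvation (0.75) and 26.3 against 24.3 FPKM in serum-replete medium (0.11). The mitochondrial one-carbon enzymes Shmt2 and Mthfd2 had log2 ratios of 0.73 and 0.30 after starvation and 0.37 and 0.48 in serum-replete medium. After starvation 5 of the 7 enzymes stood 1.5-fold or more above the TβRII fl/fl level (16.4% of all genes did) and all 7 had a ratio above 0. In serum-replete medium 2 were at least 1.5-fold higher (Psat1 and Phgdh, where 15.1% of all genes were) and 6 were above 0.

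The 9 aminoacyl-tRNA synthetases, which load tRNAs with amino acids, lay over a narrower range. Their log2 ratios ran from −0.11 (Aars) to 0.58 (Cars) after starvation, with a median of 0.30 and 8 of 9 above 0. In serum-replete medium they ran from −0.29 (Wars) to 0.60 (Mars), with a median of 0.35 and 7 of 9 above 0. Of all genes, 52.1% and 47.9% were above 0. On the scale of FPKM + 1, 0 synthetases were at least 1.5-fold higher after starvation and 1 in serum-replete medium. Of all genes, 16.4% and 15.1% were. Cars, the cysteine enzyme, was 75.8 against 50.4 FPKM after starvation and 37.6 against 27.8 FPKM in serum-replete medium. After starvation Cars was at the 1.5-fold limit, under it on the scale of FPKM + 1 and over it with smaller pseudocounts. Mars, the methionine enzyme, was the 1 synthetase past 1.5-fold on the scale of FPKM + 1, in serum-replete medium. Mars was 85.0 against 66.7 FPKM after starvation and 78.7 against 51.6 FPKM in serum-replete medium. Aars, the alanine enzyme, was 142 against 154 FPKM after starvation and 73.1 against 71.9 FPKM in serum-replete medium, and shares 1326 exonic bases with Exosc6. The most abundant synthetase in every library was Sars, the serine enzyme, at 315 and 292 FPKM after starvation and 123 and 135 FPKM in serum-replete medium, with ratios of 0.11 and −0.13. Gars (0.55 and 0.36), Nars (0.40 and 0.35), Tars (0.30 and 0.44) and Eprs (0.23 and 0.08) lay between these.

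**Figure D3:**
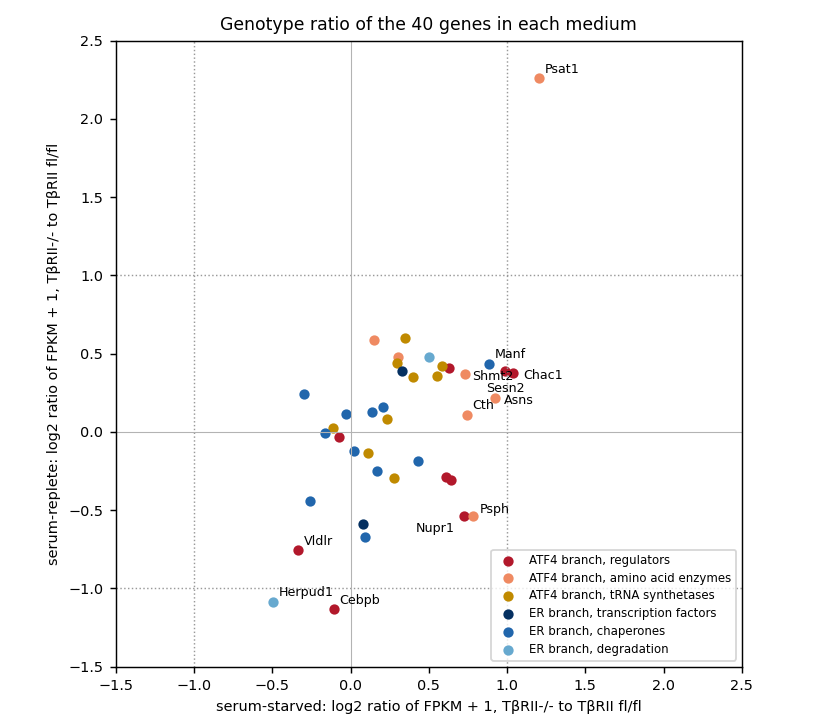
Log2 ratio of FPKM + 1 in TβRII-/- to TβRII fl/fl cells for each of the 40 genes, serum-starved on the x axis and serum-replete on the y axis, colored by role, with dotted lines at 2-fold and names for genes at 0.7 or more in size in either medium. Psat1 stands alone past 2-fold in both media, Cebpb and Herpud1 lie below −1 in serum-replete medium, and Nupr1 and Psph lie right of 0 and below 0.

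In the ER branch, Xbp1 (chromosome 11, 5520659 to 5525893), the factor activated by IRE1 splicing, was 61.7 FPKM in TβRII-/- cells against 58.5 FPKM in TβRII fl/fl cells after starvation (log2 ratio 0.08). With serum it was 27.5 and 41.9 FPKM, a log2 ratio of −0.59, past 1.5-fold. Atf6 (chromosome 1, 170704674 to 170867771), the membrane-bound sensor that is itself a transcription factor, was 25.8 and 20.4 FPKM after starvation (0.33) and 20.5 and 15.4 FPKM in serum-replete medium (0.39). Atf6 was thus higher in the TβRII-/- library of each medium, by less than 1.5-fold.

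Hspa5 (chromosome 2, 34771970 to 34777547) encodes BiP, the central ER chaperone and the usual reporter of ER stress. Hspa5 was 489 FPKM in TβRII-/- cells against 362 FPKM in TβRII fl/fl cells after starvation, a log2 ratio of 0.43, and 280.1 and 319.6 FPKM in serum-replete medium, a ratio of −0.19. It was higher in both starved libraries than in either replete library, but over a smaller span than Trib3 or Chac1. Hsp90b1, the ER form of HSP90, was 441 and 393 FPKM after starvation (0.17) and 347 and 414 FPKM in serum-replete medium (−0.25), and the media overlapped. Calr, the calcium-binding lectin chaperone calreticulin, was lower in TβRII-/- cells in both media, at 339.8 against 407 FPKM (−0.26) and 332 against 451 FPKM (−0.44).

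Manf, a secreted folding factor, was the only chaperone at least 1.5-fold apart after starvation. Manf was 136 FPKM in TβRII-/- cells against 73.3 FPKM in TβRII fl/fl cells after starvation (0.89), and 137 and 101 FPKM in serum-replete medium (0.43), and both TβRII-/- libraries lay above both TβRII fl/fl libraries. Exons of Manf overlap those of a noncoding gene, 4930524O07Rik, over 166 bases. Dnajb9, a BiP cochaperone that restrains IRE1, was 31.8 and 29.8 FPKM after starvation (0.09) and 11.7 and 19.3 FPKM in serum-replete medium (−0.67), the lowest ratio of the 11 chaperones in that medium. Pdia4, a disulfide isomerase, had the lowest ratio after starvation, at 47.3 against 58.4 FPKM (−0.30), and stood at 139 against 117 FPKM in serum-replete medium (0.24). The log2 ratios of the other chaperones, Dnajc3, Sdf2l1, Pdia6, Creld2 and Hyou1, lay between −0.16 and 0.21 in both media. The median over all 11 was 0.091 after starvation and −0.0056 in serum-replete medium, where its sign changed with scaling.

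The degradation genes had ratios of opposite sign. Herpud1 (chromosome 8, 94386438 to 94395377), a membrane protein that organizes the complex exporting misfolded proteins from the ER, was 122 FPKM in TβRII-/- cells against 172 FPKM in TβRII fl/fl cells after starvation (−0.50, the lowest of the 40 genes in that medium). In serum-replete medium Herpud1 was 21.0 and 45.7 FPKM (−1.09). It was lower in TβRII-/- cells in both media, and it was the ER gene with a CARE core before its start. Edem1, a lectin that directs misfolded glycoproteins to degradation, was higher in TβRII-/- cells, at 15.4 against 10.6 FPKM after starvation (0.50) and 14.3 against 9.95 FPKM in serum-replete medium (0.48).

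Across media, most ATF4 branch genes and fewer ER branch genes stood higher in the starved libraries. Both serum-starved libraries were above both serum-replete libraries for 28 of the 40 genes, where 19.7% of 13160 genes were, and below them for 2, where 13.2% were. The ATF4 branch held 23 of those 28, all 9 regulators, 6 of the 7 enzymes and 8 of the 9 synthetases. Its exceptions were Psat1 and Mars, whose serum-replete TβRII-/- libraries lay above the starved TβRII fl/fl libraries. In the ER branch 5 of 15 genes were higher in starved cells, namely Xbp1, Hspa5, Dnajb9, Sdf2l1 and Herpud1, and Pdia4 and Creld2 were lower. Creld2, a disulfide isomerase-like ER protein, was 24.4 and 25.02 FPKM after starvation and 34.5 and 31.8 FPKM in serum-replete medium. Pdia6, at 123 to 138 FPKM over all 4 libraries, and Hyou1, an ER chaperone of the HSP110 family, at 66.6 to 75.3 FPKM, hardly varied. The counts of 23 and 5 were the same after the 4 libraries were scaled to a common upper quartile or a common median, checks that were added after the data were seen. Over all genes the median log2 difference between starved and replete libraries was 0.12 in TβRII-/- and 0.015 in TβRII fl/fl cells.

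The genes around these 40 were read from 7 further lists of the pathway with 112 genes in all. Among 12 sensors, eIF2 subunits and phosphatase regulators, 1 was at least 2-fold higher in TβRII-/- cells after starvation and 0 in serum-replete medium. Of all genes, 8.02% and 7% were, so the starved count was near that share. At least 2-fold lower were 0 in either medium, beside 6.64% and 11.1% of all genes. The medians were −0.074 and −0.046. The higher gene was Ppp1r15a (GADD34), the subunit that directs dephosphorylation of eIF2α. It was 177 against 78.0 FPKM after starvation (1.17) and 109 against 72.7 FPKM in serum-replete medium (0.58). Eif2ak3, which encodes the ER sensor kinase PERK, was lower in TβRII-/- cells, at 30.8 against 52.4 FPKM after starvation (−0.75) and 17.6 against 28.7 FPKM in serum-replete medium (−0.68). The other eIF2 kinase genes did not all share this direction. Eif2ak2 was higher, at 20.6 against 12.9 FPKM after starvation (0.63) and 20.3 against 16.4 FPKM with serum (0.29). Eif2ak1 had ratios of −0.17 and −0.43, and Eif2ak4 of 0.33 and −0.02. The eIF2 subunit gene Eif2s1 was also higher (0.32 and 0.59).

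Among 25 other ATF4 targets, 24 were kept after starvation and 22 in serum-replete medium. After starvation 5 stood 2-fold or more above and 2 below the TβRII fl/fl level, beside 8.02% and 6.64% of all genes, with a median of 0.46. The 5, named here after their values were seen, were the amino acid transporter gene Slc7a3 (1.31), the transcription factor gene Atf3 (1.27), the ER oxidase gene Ero1l (1.27), the stress cytokine gene Gdf15 (1.26) and the folate enzyme gene Aldh1l2 (1.06). Slc7a3 was low, at 3.27 against 0.72 FPKM with a counting error of 0.21, and was not kept in serum-replete medium. Gdf15 was 692 against 288 FPKM after starvation and 375 against 177 FPKM with serum. Atf3 was 69.9 against 28.3 FPKM and 12.6 against 6.97 FPKM. In serum-replete medium 1 was higher (Gdf15, 1.08) and 5 were lower (Stc2, Cbs, Gpt2, Ddit4 and Aldh1l2). These counts stand beside 7% and 11.1% of all genes, and the median was −0.056. Aldh1l2 was low there, at 0.49 against 3.78 FPKM, and shares 1056 exonic bases with D10Wsu102e on the other strand. Cbs, which makes the cystathionine that Cth uses, was 18.4 against 85.5 FPKM after starvation (−2.16) and 12.1 against 49.9 FPKM in serum-replete medium (−1.96). Stc2, a secreted glycoprotein induced by ER stress, was 18.0 against 37.1 FPKM (−1.01) and 2.72 against 21.8 FPKM (−2.61). Cbs and Stc2 thus stood opposite to Psat1, Asns and Chac1 after starvation. Both starved libraries were above both replete libraries for 19 of the 24 targets kept in either medium, and below for 0, beside 19.7% and 13.2% of all genes.

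The synthetases outside the 40 genes had lower median ratios than the members after starvation. Of 11 other cytosolic synthetases, 0 were 2-fold apart in either medium. Of all genes, 8.02% were higher and 6.64% lower after starvation, and 7% and 11.1% in serum-replete medium. A ratio above 0 was found for 4 of the 11 after starvation (median −0.033) and for all 11 in serum-replete medium (median 0.27). Of all genes, 52.1% and 47.9% had one. Both starved libraries were above both replete libraries for 3 of these 11 and below for 3, beside 19.7% and 13.2% of all genes. Kars, the lysine enzyme, was 59.9 against 91.9 FPKM after starvation (−0.61) and 98.2 against 90.0 FPKM in serum-replete medium (0.12). Of 17 mitochondrial synthetases, 2 had a ratio above 0 after starvation and 6 in serum-replete medium, beside 52.1% and 47.9% of all genes. Their medians were −0.34 and −0.12. Whether the lists differ was not tested.

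Of 27 other ER folding and degradation genes, 26 were kept, with medians of 0.070 after starvation and −0.10 in serum-replete medium. After starvation 1 of the 26 was at least 2-fold higher and 0 were lower, beside 8.02% and 6.64% of all genes. In serum-replete medium 0 were higher and 0 lower, beside 7% and 11.1% of all genes. The higher gene was Ube2j1, the ubiquitin-conjugating enzyme of ER-associated degradation, at 61.6 against 28.0 FPKM after starvation (1.11). With serum Ube2j1 was 58.5 against 34.8 FPKM (0.73). Txndc5, an ER thioredoxin-like isomerase, was lower in TβRII-/- cells, at 84.4 against 159.5 FPKM (−0.91) and 106 against 162 FPKM (−0.61). Of 12 cytosolic heat shock genes 11 were kept, with medians of 0.32 and 0.27. After starvation 1 of the 11 was at least 2-fold higher, beside 8.02% of all genes. It was Hspb1, at 222 against 97.3 FPKM (1.18). Of 8 mitochondrial chaperones and proteases, medians were −0.084 and 0.24. On the scale of FPKM + 1, 1 gene was at least 2-fold lower after starvation, beside 6.64% of all genes. It was Trap1, the mitochondrial HSP90, at 31.7 against 64.8 FPKM (−1.01). In serum-replete medium Trap1 was 40.8 against 66.3 FPKM (−0.69). The mitochondrial list had 4 genes above and 4 below 0 after starvation, where 52.1% of all genes were above 0. In that medium 3 of the 8 were at least 1.5-fold lower, beside 13.7% of all genes. With serum 7 of the 8 were above 0, beside 47.9% of all genes.

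**Figure D4:**
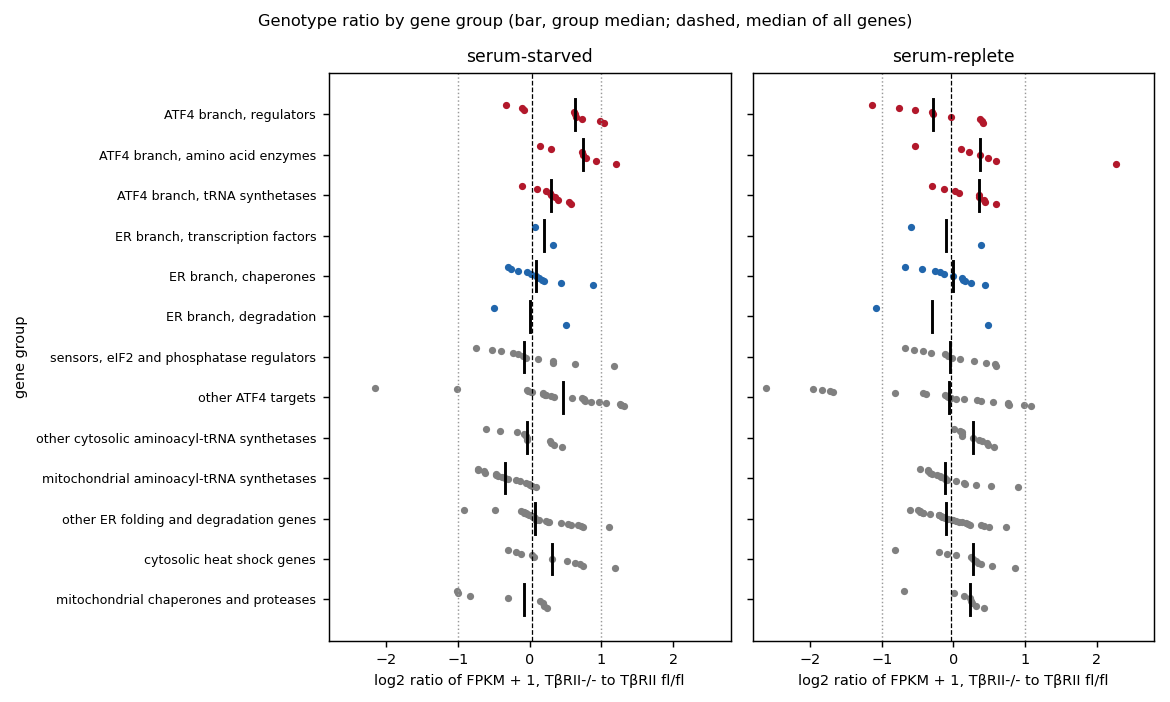
Log2 ratio of FPKM + 1 in TβRII-/- to TβRII fl/fl cells for every gene kept, by group, in serum-starved (left) and serum-replete (right) medium, with ATF4 branch groups in red, ER branch groups in blue and the other pathway lists in gray; black bars are group medians, the dashed line is the median of all genes, and dotted lines mark 2-fold. After starvation the medians of the regulators (0.63) and the amino acid enzymes (0.75) stand right of that of the chaperones (0.091), and in serum-replete medium the regulators' median lies at −0.29.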

How the data were processed

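RNA-Seq was performed on 4 libraries of IMCD cells, 1 per genotype and medium, with 30000000 reads of 50 bp stated in the labels. TopHat2, Cufflinks, Cuffdiff and mm10 are listed in the submitters' processing notes. Strandedness, versions and the annotation release were not given in the sources used here. FPKM were deposited for 37981 loci by the authors, in a separately normalized table per medium. Columns of the authors' own comparison (fold change, test statistic, p and q), and their lists of top hits and categories, were not used.

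Log2 ratios used a pseudocount of 1 and genes of at least 1 FPKM in either library (for levels across media, in either library of either medium). Calls were at 2-fold. Members at 2-fold in either medium, and Atf4, Ddit3, Xbp1, Atf6, Hspa5 and Asns, were given in all 4 libraries. Of the others, the highest and lowest of each group, and of each further list up to 4 genes with the largest ratios, could be named, and further genes were named after their values were seen. The members and lists were chosen with earlier results of these data known. Coordinates are GENCODE vM21 (GRCm38, the sequence of mm10), and promoters RefSeq on GRCm38.p6. Promoter stretches that touch an annotated exon were shown to at most 30 bases. One promoter window is not reported here. Relative depth came from steps in low values of single-transcript genes over 1500 bp, with an assumed 200 bp fragment. Between 58.6% and 66.1% of these values lay within 10% of a step, so reads were not recovered. Counting errors rest on this depth and on the longest annotated transcript of each gene, so they are approximate. Alternatives were pseudocounts of 0.1 and 0.5, no filter or 5 FPKM, median centering, upper-quartile scaling, 1.5-fold, means, and leaving out joined loci. Python 3.11.15, numpy 2.4.6, pandas 2.3.3 and matplotlib 3.10.9 were used, and the calculation was tested on simulated data.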

Additional observations from a re-analysis of the deposited data

Results flagged for a closer look

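For some genes the genotype ratios had opposite signs in the 2 media and the log2 ratios differed by at least 1. With 1 library per condition this difference was not tested. Among the 40 genes these were Nupr1, with a starved minus replete difference in log2 ratio of 1.26, and Psph, with 1.32. In the further lists the difference was 2.74 for Aldh1l2, a mitochondrial folate enzyme (1.06 after starvation and −1.68 in serum-replete medium). Aldh1l2 was 24.7 against 11.3 FPKM after starvation and only 0.49 against 3.78 FPKM in serum-replete medium. It shares 1056 exonic bases with D10Wsu102e on the other strand. The difference was 1.96 for Ddit4, an mTORC1 inhibitor (0.23 and −1.73), and 1.86 for Gpt2, a mitochondrial alanine transaminase (0.03 and −1.83). For Gpt2 the starved ratio was within its counting error of 0.038 and changed sign with scaling, so no direction is given for it after starvation. Wfs1, an ER membrane protein, had a difference of 1.14. The mitochondrial chaperonin pair had the opposite signs, with −1.10 for Hspd1 and −1.15 for Hspe1. Hspd1 and Hspe1 share 112 exonic bases on opposite strands, and whether reads were counted by strand is not stated.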

How the results depend on the processing

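Scaling both serum-starved libraries to the same upper quartile left 1 gene of the 40 at least 2-fold higher in TβRII-/- cells, since Chac1 came to 0.98. With 1.5-fold as the size called, 12 were higher after starvation, 3 were higher in serum-replete medium and 5 were lower there. The other 32 of 36 counts under the alternatives stayed within 1.5 times their main value, and 96 of 96 group medians and 947 of 947 values of named genes moved by less than 1.5-fold. That limit was wider than most of the medians themselves. Using no filter or leaving out joined loci could not change these medians or gene values, so such agreement says little about them. Median centering and upper-quartile scaling each changed the sign of 2 medians (ER-associated degradation after starvation, chaperones with serum) and 3 genes (Sdf2l1 and Gpt2 after starvation, Pdia6 with serum), none over 0.027 in size in the main result. Sesn2 passed 2-fold with pseudocounts of 0.1 (1.02) and 0.5 (1.003), Mars2 in serum-replete medium with 0.1 (1.08), and Hspe1, at −0.999 after starvation, crossed under 4 alternatives. With 5 FPKM as the minimum, Trib3 had no serum-replete value. With 1 library per condition no replicate could be left out. Depth limits only the lowest genes here, and the spread between cultures is unknown.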
